A study of Oryza sativa with 16 samples.

Results

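The regions described here were called as OsHOX24 ChIP-seq peaks in desiccated rice seedlings and in no control list. OsHOX24 is a rice transcription factor of the homeodomain-leucine zipper (HD-Zip) family. Its sites on DNA were mapped with an antibody against the protein in H49, a line transformed to over-express OsHOX24, and in wild-type rice (WT). Plants were 3 weeks old and were either desiccated for 3 h or kept in water for the same time, which gave 4 groups of 2 ChIP libraries each: H49 desiccation, WT desiccation, H49 control and WT control. A separate list of summits exists for each of the 8 libraries, a summit being the position of highest enrichment within a peak. All summits on the 12 nuclear chromosomes were pooled, and summits up to 200 bp from the previous one were merged into a region. This gave 16253 regions. A region was taken as desiccation-only where at least 2 of the 4 desiccation lists, of either genotype, and 0 of the 4 control lists had a summit in it. There were 362 such regions, 2.23% of all regions. They were selected on the calls themselves, so their absence from control is a choice and not a result. The name describes calls, since a site missing from a list may still be bound.

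HD-Zip proteins are found in plants and bind DNA as dimers, with a homeodomain that contacts the DNA and a leucine zipper that joins the partners. Members of subfamily I, to which OsHOX24 belongs, recognise a short pseudopalindromic site rich in A and T, and several of them are known for roles in the response to water deficit and to the hormone abscisic acid. The study asked which targets OsHOX24 has under desiccation and under control conditions. H49 is a single transgenic line, and WT plants carry the endogenous gene, so no library came from plants without the gene. The amount of OsHOX24 protein in each group is not known from these lists. Whole seedlings were used. The sources used here do not give the promoter of the transgene. Gene positions and genome sequence of the build of these lists were not used here, so regions are given by position, on MSU version 7.

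The lists differed in length and in content before any rule was applied. Desiccation lists held 2193 to 2691 summits and control lists 3176 to 9348, with the longest in WT control replicate 1. The peak caller of the authors scored each summit by −log10 p, which is taken here as its strength. Its median over a list was 6.10 to 7.81 in 7 libraries and 19.9 in WT desiccation replicate 2. Because these values are not comparable between libraries, they were turned into percentiles within each list, where 100 is the strongest summit. A further difference concerned dense bins, the 10 stretches of 100 kb whose share of a library's summits averaged 0.5% or more. They held 9.85% and 16.7% of the summits in H49 desiccation replicates 1 and 2, 2.42% and 21.5% in WT desiccation, 2.15% and 4.35% in H49 control, and 1.18% and 11.3% in WT control. WT desiccation replicate 1 therefore stood apart from the other 3 desiccation libraries, and WT control replicate 2 from the other 3 control libraries. Results that rest on these bins are given with and without them. The number of reads behind the lists is unknown, and it is not stated that replicates are separate plants, so the spread among these libraries may be technical.

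The desiccation-only regions were a minority of what the desiccation lists shared. Of 2143 regions called in at least 2 desiccation lists, 362 (16.9%) had no control summit, and the other 1781 are called the recurrent regions with a control summit below. That share was 23.6% among regions in exactly 2 desiccation lists (294 regions), 11.6% among those in 3 (64 regions) and 1.17% among those in all 4 (4 regions). In the opposite direction, 1828 regions (11.2% of all) were called in at least 2 control lists and in 0 desiccation lists, and 685 without WT control replicate 1. That library therefore decides much of the control-only set used for comparison below. The rule itself makes these counts, and they depend on list length: when each list was reduced to its strongest 2172 summits, the length of the shortest, 537 regions were desiccation-only and 530 were control-only. Single lists also set the count. Without WT control replicate 2 it was 657. Without H49 desiccation replicate 1, H49 desiccation replicate 2 or WT desiccation replicate 2 it was 229, 174 and 216, since fewer lists could then supply the 2 calls.

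The rule cuts through a continuous range of regions. Just outside it, 2226 regions had 1 desiccation call and no control call, at a median percentile of 35.2. A further 515 regions had at least 2 desiccation calls and exactly 1 control call, with a median over regions of the mean percentile in the calling desiccation lists of 53.9. The single control call came from WT control replicate 2 in 289 of these and from WT control replicate 1 in 147. The 294 members with 2 calls had a median of 48.5. In distance, the innermost member was Chr3:30408662-30408715, with a control summit 202 bp away, followed by Chr1:8554778-8554793 at 203 bp. The outermost excluded region was Chr3:11984498-11984882, whose single control summit lay 199 bp from a desiccation summit.

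The merging distance caps the gap between 2 summits of a region at 200 bp, and gaps below that cap are a description. In the 294 members with 2 summits, the summits lay a median of 50 bp apart (quartiles 20 and 93 bp), and 40 of them (13.6%) lay within 10 bp. In the 1393 control-only regions with 2 summits the median was 72 bp (quartiles 32 and 125 bp). The members spanned up to 357 bp from first to last summit.

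Most desiccation-only regions were called in both genotypes. Both an H49 and a WT desiccation library called 310 of the 362 regions (85.6%), against 89.7% of the 1781 recurrent regions with a control summit. The most frequent combination was H49 replicate 2 with WT replicate 2, with 92 regions (25.4%). H49 replicate 2 with WT replicate 1 gave 56 regions, H49 replicate 1 with WT replicate 1 gave 51, and H49 replicate 1 with WT replicate 2 gave 43. Of the combinations of 3 lists, both H49 libraries with WT replicate 2 were the most frequent, with 33 regions, ahead of both H49 libraries with WT replicate 1, with 26. The 2-list members thus shared a replicate number across genotypes in 143 cases (48.6%), a genotype in 52 (17.7%) and neither in 99 (33.7%). Among the 952 recurrent regions with a control summit and 2 desiccation calls, these shares were 57.0%, 19.2% and 23.7%. Of the 92 regions of the first combination, 43 lay outside the dense bins, and outside the bins 94 of 229 2-list members (41.05%) shared a replicate number. The labels do not say what libraries of the same number have in common.

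**Figure D1:**
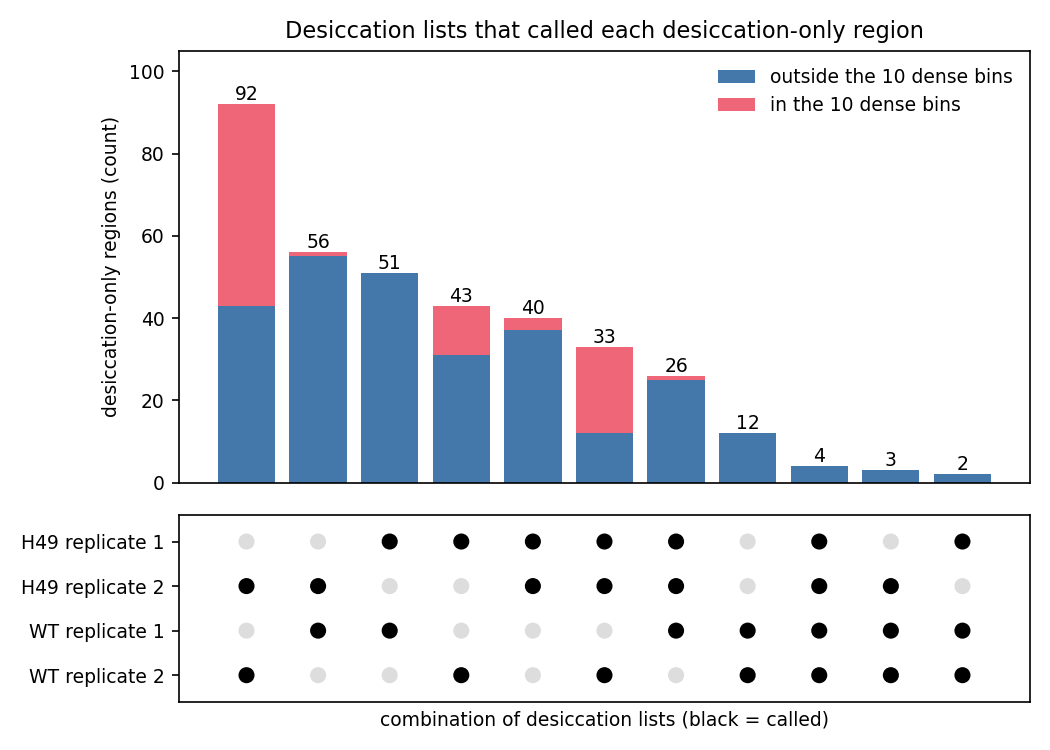
Number of desiccation-only regions (vertical axis) called by each combination of the 4 desiccation lists, with black dots below each bar for the lists that called them; red marks regions in the 10 dense bins. The tallest bar, 92 regions, belongs to H49 replicate 2 with WT replicate 2, and 43 of these lie outside the dense bins.

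The H49 lists called more of the desiccation-only regions than the WT lists. H49 desiccation replicates 1 and 2 called 199 and 254 of the 362 regions, against 154 and 189 in WT desiccation. As shares these were 55.0% and 70.2% in H49 and 42.5% and 52.2% in WT, so the genotypes did not overlap. The means were 62.6% ± 10.7 in H49 and 47.4% ± 6.84 in WT (SD, n = 2 each), a difference of 15.2 percentage points. Calls in these same lists chose the members, so the difference is a description, with no test. H49 was above WT by 12.4 points among replicates 1 and by 18.0 points among replicates 2. The recurrent regions with a control summit leaned the same way, with 67.2% and 76.7% called in H49 and 59.8% and 61.9% in WT. As a share of each library's own regions, the desiccation-only regions made up 8.54% and 10.8% in H49 and 5.75% and 8.73% in WT, and the genotypes overlapped. Leaving out 1 desiccation library at a time gave differences from −0.41 without WT desiccation replicate 1 to 39.3 without H49 desiccation replicate 1. The difference was 34.8 without H49 desiccation replicate 2 and 7.64 without WT desiccation replicate 2. In each case every member called in both genotypes must be called in the list left alone in its genotype. That raises the share of that list by the rule, so these values do not measure the stability of the difference.

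Regions called in both libraries of one genotype and neither of the other were few. Both H49 and neither WT desiccation library called 40 desiccation-only regions (11.05%), while 164 of all 2143 regions called in at least 2 desiccation lists did so (7.65%). Both WT and neither H49 library called 12 (3.31%), while 71 of the 2143 did so (3.31%). Such regions lie in exactly 2 desiccation lists, as did 81.2% of the members but 53.5% of the recurrent regions with a control summit. The shares of 362 and 2143 are therefore not matched. Among regions in exactly 2 lists, the H49 pattern held 40 of 294 members and 124 of 952 recurrent regions with a control summit. The WT pattern held 12 of 294 and 59 of 952. With both patterns pooled, these were 17.7% of members and 19.2% of the others, so the members showed no excess. No difference was tested. The H49 regions lay on 10 chromosomes, 3 of the 40 in dense bins, and their median percentile was 40.3. The count of 40 was 67 without WT control replicate 2, 69 without WT desiccation replicate 1 and 73 without WT desiccation replicate 2. It could only rise in these cases, since fewer lists then had to lack a summit. With equal lists it was 77, and in the upper 50% of each list 19.

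The 5 strongest of the 40 H49 regions ranked between the 43.6 and 78.4 percentiles of their lists. Chr5:25442060-25442064 had 10.4 and 11.4 in H49 desiccation replicates 1 and 2 and lay 45090 bp from the nearest control summit. Chr1:6259540-6259574 had 8.88 and 12.2, with a control summit 1861 bp away. Chr5:12886880-12886886 had 8.04 and 13.6 and lay 2071 bp from one. The last of these began a cluster of 6 desiccation-only regions. Chr7:5897962-5897978 had 8.45 and 7.81 at 78754 bp from a control summit, and Chr7:28717052-28717104 had 8.45 and 7.12 at 328 bp. The summits of the 2 H49 libraries lay 4 to 52 bp apart in these 5 regions.

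The H49 regions lay a median of 1150 bp from the nearest control summit and the 12 WT regions 370 bp. Within 1 kb of a control summit lay 20 of the 40 in H49 and 10 of the 12 in WT. The strongest WT region was Chr12:20558484-20558533, with 17.2 and 83.8 in WT desiccation replicates 1 and 2, and all 4 control lists had a summit within 1 kb of it. Another, Chr5:24323782-24323848, had 8.66 and 11.7, and Chr5:24328624-24328807 had 6.45 and 10.6. These last regions belong to a cluster of 7 desiccation-only regions within 5671 bp on chromosome 5. It held 1 and 4 summits in H49 desiccation replicates 1 and 2, 6 and 7 in WT desiccation, 1 and 0 in H49 control and 1 and 1 in WT control. WT desiccation was the group with most summits there, and 4 of the 7 regions were called in both WT libraries and neither H49 library. The cluster is described because it holds named WT regions, so this lead follows in part from that choice. The other WT regions named by the same rule were Chr2:25877943-25877966, with 10.9 and 6.67, and Chr2:30887316-30887326, with 8.23 and 6.44. Their nearest control summits were 219 and 256 bp away.

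Desiccation-only regions sat in the middle of their lists, below the regions that also had a control summit. Their median percentile was 48.72 and 49.96 in H49 desiccation replicates 1 and 2 and 47.0 and 59.7 in WT desiccation. Outside the dense bins these medians were 50.3 and 42.8 in H49 and 47.0 and 53.9 in WT. The recurrent regions with a control summit had medians of 66.9, 64.8, 70.1 and 64.8 in the same libraries. The members were lower in 4 of 4 libraries. The upper 25% of a list held 15.6% and 12.6% of the members called in H49 replicates 1 and 2 and 16.9% and 14.8% of those in WT. For the recurrent regions with a control summit these shares were 40.9%, 38.0%, 43.5% and 39.8%. Regions called in 2 desiccation lists can be set side by side: 48.7 and 48.6 for members in H49 and 43.5 and 60.2 in WT, against 43.5, 54.4, 52.3 and 64.7 for regions with a control summit. In that matched comparison H49 replicate 1 went the other way. Regions called in 1 desiccation list and in no control list were weaker than members, at medians of 32.6, 27.0, 37.4 and 43.0. Absence from the control lists is part of the rule, and no test was made.

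**Figure D2:**
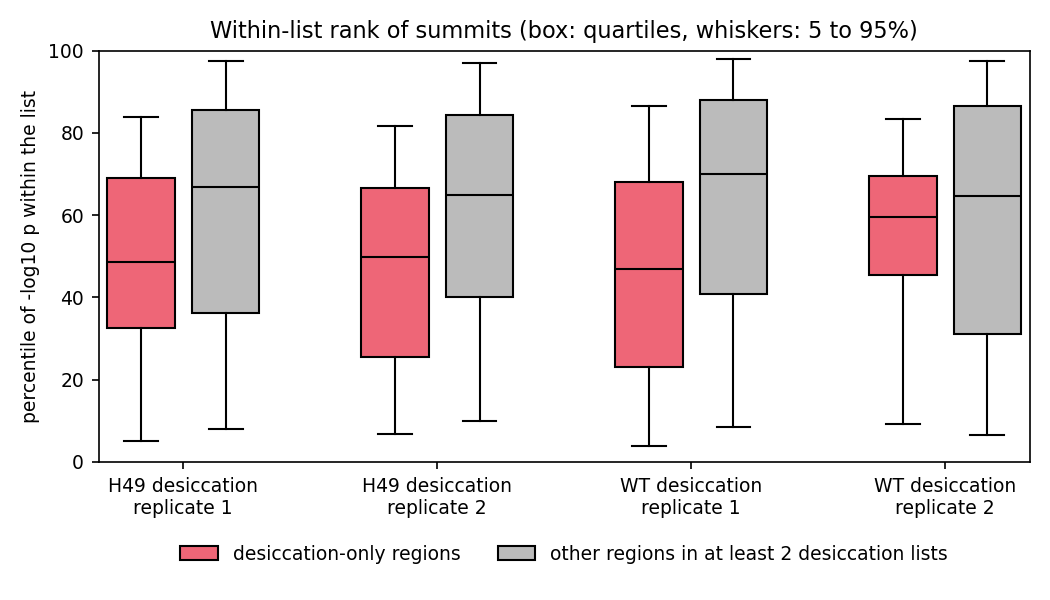
Percentile of −log10 p within each of the 4 desiccation lists (vertical axis) for the desiccation-only regions in red and the other regions called in at least 2 desiccation lists in grey; lines are medians, boxes quartiles and whiskers the 5 to 95% range. The red medians, 47.0 to 59.7, lie below the grey medians, 64.8 to 70.1, in each library.

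The 4 members called in all 4 desiccation lists had moderate values. Chr8:23622739-23622828 had −log10 p of 10.4 and 9.13 in H49 desiccation and 6.41 and 14.3 in WT desiccation, with the nearest control summit 2033 bp away. Chr2:28989471-28989823 had 8.16 and 9.61 in H49 and 9.47 and 5.17 in WT, at 980 bp. Chr5:6781997-6782076 had 7.03 and 7.74 in H49 and 6.70 and 9.03 in WT, at 3936 bp, the farthest of the 4. Its values were the most even of the 4, with an SD of 1.03 over the libraries.
Chr3:31604165-31604348 had 9.85 and 3.27 in H49 and 9.52 and 4.55 in WT. In both genotypes replicate 1 was the higher, and all 4 control lists had a summit within 1 kb, the nearest 206 bp away. Percentiles showed the same spread within a region: Chr2:28989471-28989823 ranked at 68.5 and 62.5 in H49, and at 83.2 in WT replicate 1 but 14.04 in WT replicate 2, whose list has the highest median.

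The strongest members called in at least 3 desiccation lists were headed by Chr4:32891694-32891782. Its −log10 p was 39.1 and 82.5 in H49 desiccation replicates 1 and 2 and 15.9 in WT desiccation replicate 1, at percentiles of 94.6, 96.1 and 94.2, and WT replicate 2 did not call it. The nearest control summit, 1467 bp away, belonged to a region called in all 8 lists. It lies in a dense bin. Another 3 regions of this group lie together on chromosome 12 in another dense bin. Chr12:5611110-5611112 had 22.2 and 12.7 in H49 and 40.2 in WT replicate 2. Chr12:5642564-5642623 had 14.8 and 12.9 in H49 and 39.5 in WT replicate 2. Chr12:5653706-5653730 had 10.2 and 12.2 in H49 and 24.1 in WT replicate 2. WT desiccation replicate 1 called none of them.

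Outside the dense bins the strongest was Chr9:14508031-14508051, with 14.3 and 15.1 in H49 and 37.3 in WT replicate 2. A control summit lay 552 bp away. Chr1:27325596-27325611 had 11.8 and 13.9 in H49 and 7.61 in WT replicate 1, and all 4 control lists had a summit within 1 kb of it. Chr5:12983933-12983949 had 7.84 and 11.4 in H49 and 38.5 in WT replicate 2. Of the named regions of this group outside the dense bins, Chr3:19954696-19954831 was the one farthest from control, at 21380 bp, with 9.60 and 10.8 in H49 and 28.3 in WT replicate 2. Chr3:2656490-2656497 had 6.81 and 10.3 in H49 and 7.63 in WT replicate 1. In the chromosome 2 dense bin, Chr2:14285345-14285355 had 6.41 and 13.6 in H49 and 33.2 in WT replicate 2. Each of these 10 regions had a summit in both H49 lists and in 1 WT list. Most regions called in 3 lists had this pattern. Among the 68 members in at least 3 lists, 33 had it with WT replicate 2 and 26 with WT replicate 1. Among the 490 recurrent regions with a control summit and 3 desiccation calls, these counts were 218 and 159.

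More than 50% of the desiccation-only regions had a control summit close by. Of the 362, 112 lay within 500 bp of one and 192 (53.0%) within 1 kb, and the median distance was 919 bp (quartiles 462 and 2528 bp). The rule sets a minimum of 201 bp. Regions called in 1 desiccation list and no control list were also close to control summits, with 26.5% within 500 bp (30.9% of the members) and 42.9% within 1 kb. By comparison, 22.6% of the 1828 control-only regions had a desiccation summit within 1 kb, and their median distance was 4952 bp. The desiccation lists are shorter, so there were fewer summits to be near. Control summits were near in several libraries for part of the members: 26 had a summit of all 4 control lists within 1 kb, 26 of 3 lists, 26 of 2 lists and 114 of 1 list. For the 192 members within 1 kb, the neighbouring region that held the control summit was also called in at least 1 desiccation list in 106 cases (55.2%) and in at least 2 in 69 (35.9%). Those members flanked a region that both treatments called. The nearest control summit belonged to WT control replicate 2 for 159 members (43.9%), to WT control replicate 1 for 115, to H49 control replicate 1 for 47 and to H49 control replicate 2 for 41. Without WT control replicate 2 the median distance was 3710 bp.

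**Figure D3:**
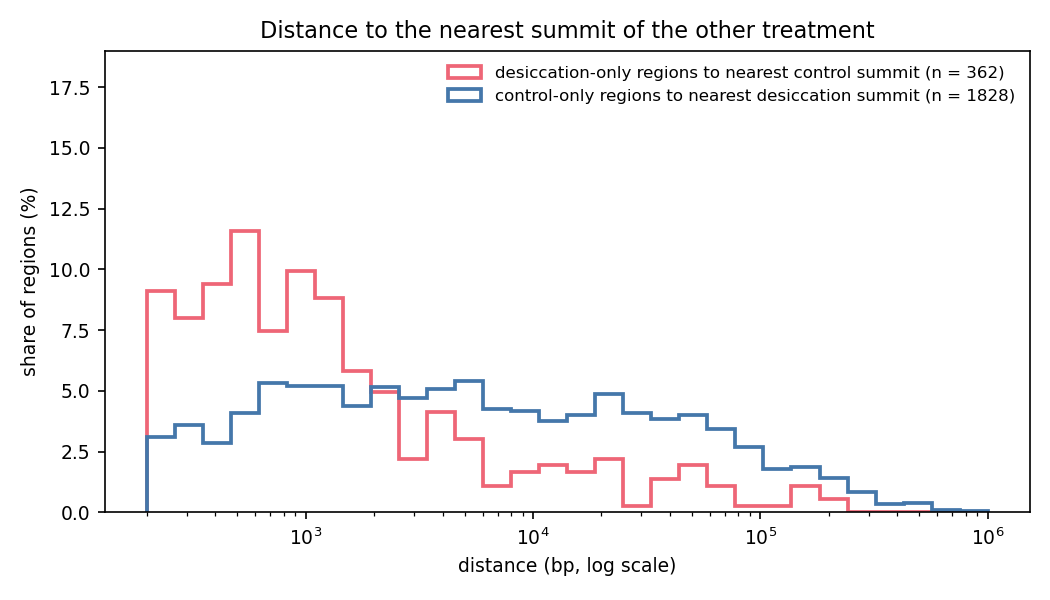
Distance in bp on a log scale (horizontal axis) from the 362 desiccation-only regions to the nearest control summit in red, and from the 1828 control-only regions to the nearest desiccation summit in blue, as a share of each set (vertical axis). The red curve is highest below 1 kb, where 53.0% of its regions lie, against 22.6% for the blue curve.

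If a control summit within 1 kb is also barred, 170 regions remain. Of these, 35 were called in at least 3 desiccation lists, 20 in both H49 and neither WT library and 2 in both WT and neither H49 library. A total of 47 members (12.98%) had no control summit within 10 kb. They were called in both genotypes in 38 cases, by both H49 and neither WT library in 8 and by both WT and neither H49 library in 1, and 1 of the 47 lay in a dense bin. Their median percentile was 47.4, close to that of all members, 48.9. Chromosome 1 held 13 of the 47 and chromosome 7 held 8, while chromosomes 4 and 8 held 0.

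The 5 most remote members called in at least 3 lists had mean percentiles from 21.4 to 57.2, against a median of 48.9 over all members. Members called in 2 lists lay up to 215097 bp from control and are not described here. Among members called in at least 3 lists, Chr7:15401010-15401136 was the farthest from control, at 163336 bp, with −log10 p of 6.07 and 8.34 in H49 desiccation and 5.34 in WT desiccation replicate 1. Chr7:27977185-27977198 was next, at 74650 bp, with 6.13 and 11.97 in H49 and 21.8 in WT replicate 2. Chr3:29446340-29446482 lay 43159 bp from control, with 8.10 and 4.11 in H49 and 6.41 in WT replicate 1. Chr2:34836780-34837060 lay at 42340 bp and Chr1:10207924-10208058 at 36645 bp, and both were called in the H49 libraries and in WT replicate 1. Their values ran from 4.66 to 4.93 and from 5.51 to 8.96. Each of the 5 had a summit in both H49 lists and in 1 WT list, as did most members called in at least 3 lists.

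The region on chromosome 7 had close company, and its neighbours were chosen once their values had been seen. Chr7:27976403-27976472 was called in H49 replicate 1 (12.7) and WT replicate 2 (21.1), and Chr7:27979189-27979190 in H49 replicate 2 (16.3) and WT replicate 2 (45.7). In these 3 regions WT replicate 1 had no summit. By percentile within its list, WT replicate 2 was at 51.5 in the first region, below H49 replicate 1 at 81.8. Of the 15 members more than 50 kb from any control summit, chromosome 7 held 6, chromosome 1 held 4 and chromosome 5 held 3.

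By chromosome, the desiccation-only regions were most numerous on chromosome 1, with 59 (16.3%, against 18.9% of the recurrent regions with a control summit). Chromosome 10 held 40 (11.05%, against 7.58%) and chromosome 5 held 34 (9.39%, against 5.78%). Chromosome 3 held 37 (10.2%, against 13.5%) and chromosome 11 held 7 (1.93%, against 2.41%). Without the dense bins chromosome 10 held 19 of 275 members (6.91%, against 5.23%), and chromosome 8 held 6 in place of 17. Chromosome 5, which has no dense bin, held 12.4% of the members outside the bins, against 6.82% of the other recurrent regions there. The outer 10% at each chromosome end held 65 members (18.0%), 21.2% of the recurrent regions with a control summit and 26.9% of the control-only regions. These shares were not tested.

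About 1 in 4 desiccation-only regions came from the dense bins. They held 87 of the 362 (24.0%) and 270 of the 1781 recurrent regions with a control summit (15.2%), against 6 of the 1828 control-only regions. Desiccation summits entered the choice of the bins, so the low control-only count follows in part from that choice. WT control replicate 1, which decides much of the control-only set, had 1.18% of its summits in them. The members' share was 11.6% without WT desiccation replicate 2 and 36.3% in the upper 50% of each list. The members were not spread evenly over the 10 bins: 6 bins held 85 of them, and the other 4 bins held 2. The 6 bins were Chr10:10800001-10900000 with 21 members, Chr12:5600001-5700000 with 15, Chr2:14200001-14300000 with 14, Chr1:33500001-33600000 and Chr4:9100001-9200000 with 12 each, and Chr8:9200001-9300000 with 11.

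Summits in these 6 bins differed between replicate numbers and between treatments. The bins were taken for their desiccation-only regions, so an excess of desiccation summits there follows in part from that choice. Together the bins held 145 and 303 summits in H49 desiccation replicates 1 and 2, 13 and 364 in WT desiccation, 11 and 52 in H49 control, and 27 and 263 in WT control. As shares of the library's summits these were 6.21% and 12.8%, 0.483% and 16.8%, 0.260% and 1.54%, and 0.289% and 8.31%. In each group replicate 2 was the higher. By share, the desiccation library was the higher within each genotype and replicate number, in 4 of 4 pairs. By count, WT desiccation replicate 1 was below WT control replicate 1, with 13 summits against 27. WT control replicate 2 was above both H49 desiccation replicate 1 and WT desiccation replicate 1. In 5 of the 6 bins WT desiccation replicate 1 had 0 summits, and all 13 of its summits lay in the bin on chromosome 1. The bin on chromosome 10 held 42 and 82 summits in H49 desiccation, 0 and 102 in WT desiccation, 0 and 16 in H49 control, and 11 and 72 in WT control. WT control replicate 2 thus had more summits in that bin than H49 desiccation replicate 1. Of the 87 members in dense bins, WT desiccation replicate 2 called 82, H49 desiccation replicate 2 called 75, H49 desiccation replicate 1 called 37 and WT desiccation replicate 1 called 2. Their nearest control summit was at a median of 858 bp. The part that the replicate plays in these calls was not tested.

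**Figure D4:**
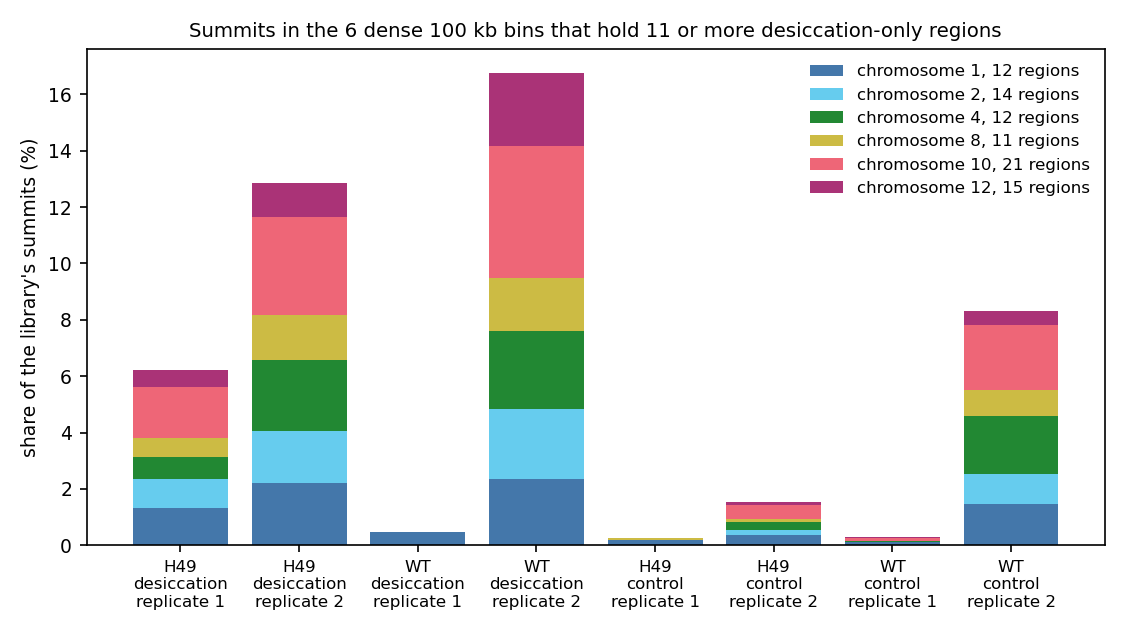
Share of each library's summits (vertical axis, %) that lay in the 6 dense bins with most desiccation-only regions, stacked by bin, with desiccation libraries to the left of control libraries. WT desiccation replicate 1 has 0.483% and WT control replicate 2 has 8.31%, so the height of the bars does not follow treatment alone.

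Without the dense bins 275 desiccation-only regions remained, 46 of them called in at least 3 desiccation lists. H49 desiccation replicates 1 and 2 then called 58.9% and 65.1% of them, and WT desiccation 55.3% and 38.9%. The difference of 14.9 percentage points between the genotypes was close to that with the bins. In WT the order of the replicates turned round. The median distance to a control summit was 1010 bp.

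Desiccation-only regions were often close to one another. Of the 362, 172 (47.5%) had another within 10 kb. The shares were 56.3% of the 1781 recurrent regions with a control summit and 53.1% of the 1828 control-only regions. A larger set has more neighbours within a given distance, so these shares do not rank the sets by clustering. Joining members up to 10 kb apart gave 236 clusters, of which 190 held a single region and 26 held 2. The 4 clusters with most members held 46 regions, and all 46 lay in dense bins. Without the dense bins, 88 of 275 members (32.0%) had another within 10 kb. Without WT desiccation replicate 2, 20.4% of the members did.

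The largest cluster, Chr12:5609353-5658070, held 15 members in 48718 bp. It contained 14 and 28 summits of H49 desiccation replicates 1 and 2, 0 and 56 of WT desiccation, 0 and 4 of H49 control and 1 and 16 of WT control. WT desiccation replicate 2 called all 15 members and H49 desiccation replicate 2 called 13. In all, 60 regions lay within the cluster, and 16 of them held a control summit. The last 5 members, from Chr12:5646306-5646336 on, lay beyond the last control summit of the cluster, up to 12603 bp from it. The second cluster, Chr2:14241274-14264515, held 12 members in 23242 bp, with 11 and 19 summits in H49 desiccation, 0 and 29 in WT desiccation, 0 and 0 in H49 control and 0 and 12 in WT control. The third, Chr10:10869135-10897987, held 10 members in 28853 bp, with 12 and 22 summits in H49 desiccation, 0 and 33 in WT desiccation, 0 and 1 in H49 control and 0 and 17 in WT control. In all 3 clusters WT control replicate 2 had more summits than the other control libraries. The members' median distance to the nearest control summit was 1425, 954 and 719 bp in the 3 clusters in this order.

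**Figure D5:**
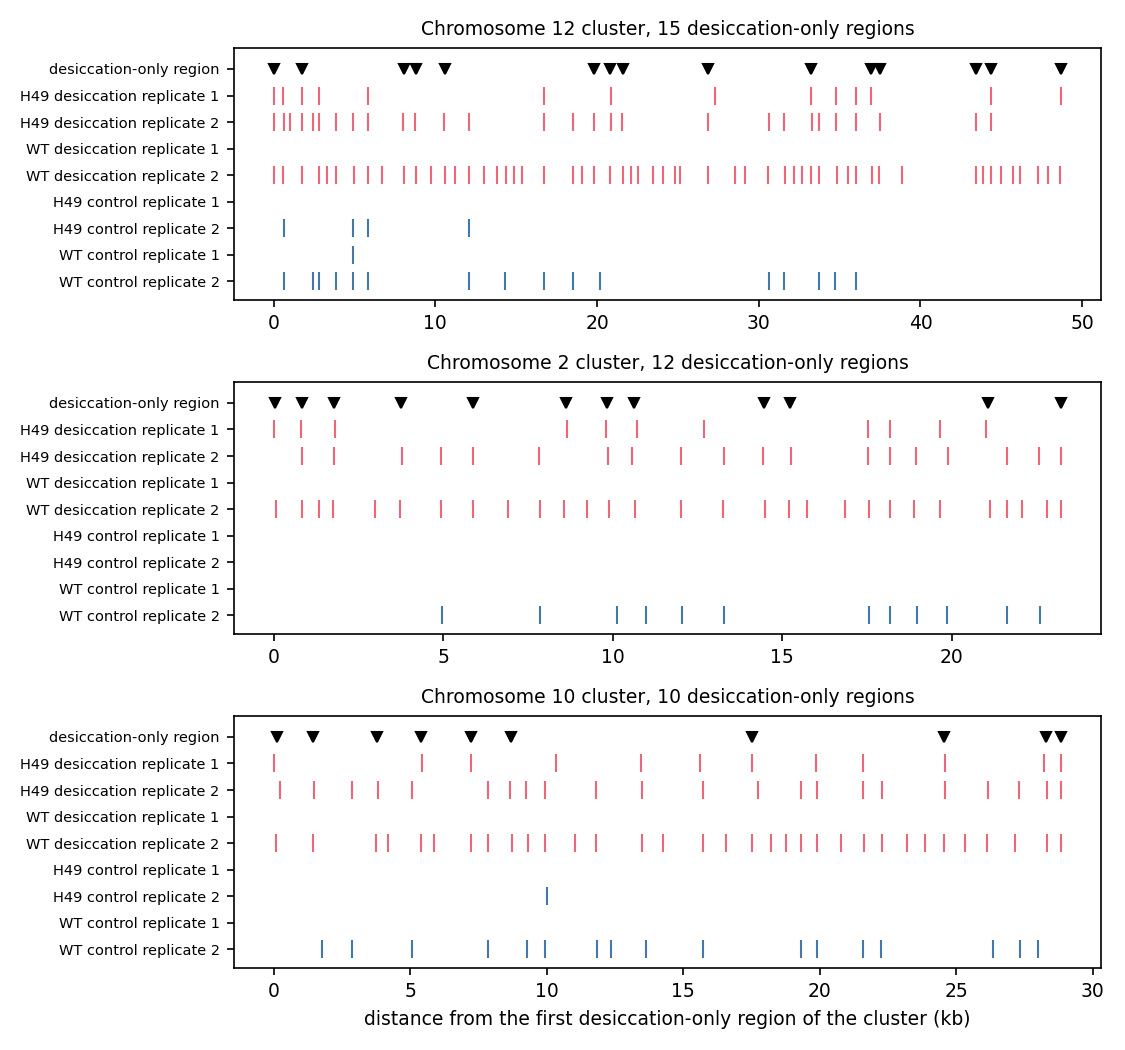
Summit positions of the 8 libraries (one row each, desiccation in red above control in blue) within the 3 largest clusters, against the distance in kb from the first desiccation-only region; triangles mark the members. The members are 15, 12 and 10 in number, WT control replicate 2 has the most control summits in each cluster, and WT desiccation replicate 1 has no summit in any of the 3 clusters.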

How the data were processed

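ChIP-seq summits of 8 libraries were used, and the 8 inputs were left out. Reads had been filtered with NGS QC Toolkit, aligned to rice MSU version 7 by Bowtie2 and peaks called by MACS2 2.1.1.20160309, per the series' design text and the submitters' processing notes. The sources used here do not say whether a Bedops selection or the inputs entered the lists. The deposited value of a summit is −log10 of the authors' p-value, a unit read from the summit format and the lowest value, close to 3 in each list. It grows with read number, so it was ranked within lists. Lines with a damaged peak name (2) were kept.

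Summits were sorted, merged and counted with Python 3.11.15 and pandas 2.3.3, and region calling was tested on simulated lists. A library's strongest summit stood for it in a region, and distances run from a region's outermost summits. The members and lists were chosen with earlier results of these data known. A permutation test of the genotype difference over the 6 assignments of the 4 desiccation libraries had been planned, but calls in those lists chose the members, so its p is not used. All results are descriptions. Named regions are the members in all 4 desiccation lists, the 10 strongest by mean percentile and the 5 farthest from control among those in at least 3 lists, the 5 strongest called by 1 genotype alone for each genotype, and the 3 largest clusters. Alternatives changed the merging distance, list length, control distance and libraries.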

Additional observations from a re-analysis of the deposited data

How the results depend on the processing

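The rule, the lists and the merging distance set the numbers. Merging up to 100 bp gave a median control distance of 607 bp. Merging up to 500 bp gave 1686 bp and 5 regions called in both WT and neither H49 list. In the upper 50% of each list 226 regions met the rule, 27 in at least 3 lists, 19 in H49 alone and 1 in WT alone, at a median percentile of 66.4 and 1469 bp. Percentiles refer to the full lists, so this cut raises the median percentile by itself. Equal lists gave 109 in at least 3 lists, 77 in H49 alone, 19 in WT alone and 1777 bp. Barring control summits within 1 kb left 170 regions, 35 in at least 3 lists, 20 in H49 alone, 2 in WT alone and 2895 bp. Without the dense bins, an alternative chosen after seeing the data, the distance was 1010 bp.

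Leaving out 1 library at a time gave 174 to 657 regions, 5 to 141 of them in at least 3 lists and 42 to 73 in H49 alone. The count in H49 alone could only rise, since fewer lists then had to lack a summit. The median percentile was 42.1 to 54.5, the distance 897.5 to 3710 bp and the share with a neighbour within 10 kb 20.4% to 63.9%. The H49 minus WT difference ran from −0.41, the only reversal, to 39.3 points. With 1 desiccation list of a genotype left, every member called in both genotypes must be called in that list. The rule thus moves the difference by itself, and the range does not measure its stability. Nothing else that may move it was tested. With a replicate block, exchanging genotypes within replicate numbers only, it was 15.2 points, which in this balanced layout equals the main value by arithmetic. Over 100 kb bins, deviations of same-numbered H49 and WT desiccation libraries correlated (r = 0.75, and 0.41 without the dense bins). Over regions their r was 0.11. For the other pairs of groups, r over bins ran from 0.28 (H49 desiccation with H49 control) to 0.79 (WT desiccation with WT control). The labels tie the numbers to nothing shared. Of the 29 named regions, 16 to 29 met the rule under each alternative. Motif shares were not run, since no genome sequence was used here. Read depth is unknown, so no limit of detection can be given.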

Other observations

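The highest-ranked desiccation-only regions overall gathered on chromosome 12 in a stretch of 200 kb outside the dense bins. They were chosen once their values had been seen. Of the 10 members with the highest mean percentile, 5 lay in Chr12:20400001-20600000, which held 8 members in all, at mean percentiles from 76.6 to 97.0. Chr12:20483764-20483775 had −log10 p of 56.7 in H49 desiccation replicate 1 and 17.9 in WT desiccation replicate 1. Chr12:20578948-20578951 had 88.0 in H49 desiccation replicate 2 and 15.9 in WT desiccation replicate 1. Each of the 8 was called in 2 desiccation lists, with a control summit 458 to 3846 bp away. That stretch held 22 and 10 summits in H49 desiccation, 41 and 14 in WT desiccation, 20 and 9 in H49 control and 14 and 9 in WT control. By count, replicate 1 had the more summits there in each group, while replicate 2 had the more in the 6 bins described above. As a share of the list, replicate 2 was the higher in WT control, where the lists held 9348 and 3176 summits.

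The sequences ChrUn and ChrSy, outside the 12 chromosomes, held 56 of the 29740 summits in 36 regions, of which 0 met the rule for desiccation-only regions.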
